A study of Mus musculus with 4 samples.

Results

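The 8 genes Dnaaf1, Dnaaf2, Dnaaf3, Dnaaf5, Zmynd10, Lrrc6, Spag1 and Ccdc103, which encode proteins for the assembly of axonemal dynein arms, were examined for RFX2 binding in mouse testis. They were listed by name, with earlier results of these data known, out of 21938 protein-coding genes of genome build GRCm38. RFX2, one of the Regulatory Factor X proteins, binds DNA and regulates transcription, and its binding was mapped by ChIP-seq, in which DNA is recovered with an antibody to the protein and sequenced. The series had 4 samples from wild type (WT) mice, namely 2 RFX2 ChIP replicates and 2 inputs, which are chromatin sequenced without immunoprecipitation. All came from decapsulated testis of a mixed C57BL/6, 129/Sv and FVB/N background at postnatal day 29 to 30 by the sample labels. The results text of the study instead describes dissociated germ cells from WT mice of a younger age. No mutant or treated animal was profiled in these samples. If the labels apply, chromatin of a whole testis mixes all of its cell types. Peak lists hold no expression by which the tissue could be checked against markers.

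The measurements were 3 deposited peak lists. Replicate 1 held 39825 peaks, replicate 2 held 21274, and a combined list, whose peak names begin with "all", held 2726. The replicate lists give each peak a score on a −log10 scale, and whether it stands for a p-value or a q-value is not stated. The combined list gives −log10 p, the fold enrichment over local background and the summit, the base of highest signal. Read depth is unknown for every list, and the inputs entered only through the peak calling. A promoter was defined as the 1000 bp upstream to 500 bp downstream of any annotated transcription start site (TSS) of a gene, and a peak counted if it met this window by at least 1 bp.

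The dynein arms are the motors that bend cilia and sperm flagella. They are built in the cytoplasm, before transport into the axoneme, by chaperones and a set of dedicated assembly factors, and loss of such a factor leaves axonemes without arms and causes primary ciliary dyskinesia with immotile sperm. RFX factors bind the X-box, an inverted repeat found in promoters of many ciliary genes. Round spermatids, the haploid cells that start to build a flagellum, express RFX2.

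Promoter peaks of RFX2 were found at all 8 genes in each of the 3 lists. Replicate 1 had a promoter peak at 8 of 8 genes, where 14.0% of all protein-coding genes had one. Replicate 2 likewise had 8 of 8, where the share of all genes was 11.3%. Both replicates had a promoter peak at 9.05% of all genes, and their promoter peaks overlapped each other at 8.77%, as they did at 8 of 8 assembly factor genes. In the combined list the count was again 8 of 8, where 5.26% of all genes had a promoter peak, and 5.19% had one in all 3 lists. With 2 replicates and genes chosen by name, no test was applied to these counts. The combined list was treated as a call on the pooled reads of both replicates, so that its peaks are no further replication.

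The sequences under the summits are shown first, because they place the peaks relative to the palindrome GTTGCCATGGCAAC, the 14-bp X-box searched for. In each combined promoter peak, the best match to this palindrome was taken from the 200 bp around the summit. The capitals mark that match, and the flanks are in lower case. Each sequence is the GRCm38 reference read 5′ to 3′ along the strand of its gene.
Dnaaf1, chr8:119575268-119575297, plus strand: gcgcactgGTTGCCGCGGCGACcgggaaag
Dnaaf2, chr12:69198425-69198454, minus strand: tcccaggcGTTACTATGGCAACaaagcacg
Dnaaf3, chr7:4532595-4532648, minus strand: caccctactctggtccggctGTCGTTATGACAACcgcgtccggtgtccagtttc
Dnaaf5, chr5:139150209-139150238, plus strand: tagcgccgGTTCCCTTGGAGACaggcaacg
Zmynd10, chr9:107547296-107547325, plus strand: gctccctcGTTTCCATGGCGACgacgactc
Lrrc6, chr15:66500878-66500907, minus strand: gaatccctGTTGCCATGACTCCcggattgc
Spag1, chr15:36179644-36179673, plus strand: tggaaaccGTTGCCATGGCTGGggcgtgcc
Ccdc103, chr11:102881233-102881262, plus strand: caatctctGTTGCGAGGGCGATgcactaag

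The matches differed in how close they came to the palindrome. Zmynd10 and Dnaaf2 had 2 mismatches each. At Zmynd10 these were G4T and A12G, and at Dnaaf2 G4A and C6T, with the palindrome's base first, positions counted from 1 at its 5′ end and the gene's base last. Dnaaf1, Lrrc6 and Spag1 had 3 mismatches each, and in Lrrc6 and Spag1 the first 9 bases matched the palindrome without a mismatch. The differences of Lrrc6 were G10A, A12T and A13C, those of Spag1 were A12T, A13G and C14G, and those of Dnaaf1 were A7G, T8C and A12G. Dnaaf3, Dnaaf5 and Ccdc103 had 4 mismatches each, which was over the limit of 3 set for an X-box. Positions 1, 2 and 9 matched in 8 of 8 genes, whereas position 12 differed in 6 of 8. These counts include the 3 genes over the limit, and no share over other promoter peaks stands beside them. The palindrome is its own reverse complement, so that position 12 becomes position 3 on the other strand. Position 3 itself differed in 1 of 8.

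An X-box with at most 3 mismatches was thus present at 5 of 8 assembly factor genes, and 58.9% of the 992 combined promoter peaks held one within the same distance of the summit. The share among the genes was therefore near that of promoter peaks in general. For comparison, 2.50% of the 200-bp windows at the first TSS of all 21938 protein-coding genes held such a match. With at most 4 mismatches the counts were 8 of 8 genes, 77.9% of promoter peaks and 8.71% of windows at the TSS. The centre of the match lay within 10 bp of the summit in 6 of 8 genes, at 2 bp in Dnaaf3, 5 bp in Dnaaf5 and Ccdc103, 7 bp in Lrrc6 and Spag1, and 8 bp in Zmynd10. It lay 27 bp away in Dnaaf1 and 30 bp away in Dnaaf2. The 3 genes with 4 mismatches were thus among those whose match was nearest to the summit. Among promoter peaks with a single best match, 64.0% of those with 2 mismatches, 60.3% of those with 3 and 52.1% of those with 4 had it within 10 bp of the summit, so that the 8 genes were near promoter peaks in general.

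The assembly factor genes are described below by role, starting with those that act with HSP90 chaperones. Dnaaf2 (ENSMUSG00000020973.7, also called kintoun) is a PIH domain protein that serves as a co-chaperone in dynein folding. Its promoter peak had a score of 131 in replicate 1 and 72.2 in replicate 2, at ranks 400 and 272. The combined peak, chr12:69198080-69199104, had a −log10 p of 176.5 at rank 346 and a fold enrichment of 22.9. Its summit lay at +20 bp from the single annotated TSS, in the 5′ UTR. The peak was similar in width in both replicates, at 896 and 831 bp. It also met the promoter window of Gm49383, a gene on the same strand whose TSS lies 1325 bp away and outside the peak.

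Spag1 (ENSMUSG00000037617.12) encodes a tetratricopeptide repeat protein that acts as a scaffold for chaperones. Its scores were 84.8 in replicate 1, at rank 894, and 26.8 in replicate 2, at rank 1236. The combined peak, chr15:36179287-36180190, had a −log10 p of 102 at rank 1012 and a fold enrichment of 17.1. Spag1 has 8 annotated TSSs, and the position of the peak depended on which of them was used. The summit lay at +135 bp from the TSS of transcript Spag1-202, in its 5′ UTR, and at +1566 bp from the first TSS of the gene. With a promoter drawn around the first TSS alone, Spag1 had no promoter peak in any of the 3 lists.

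Zmynd10 and Lrrc6 encode partners that bind each other, a MYND zinc finger protein and a leucine-rich repeat protein. The peak of Lrrc6 was the stronger of the pair in all 3 lists. Lrrc6 (ENSMUSG00000022375.6) scored 182 in replicate 1 and 76.6 in replicate 2, at ranks 167 and 230. Its combined peak, chr15:66500285-66501695, had the highest −log10 p of the 8 genes, 229 at rank 159, and the highest fold enrichment, 37.0, which was rank 97 by fold. The summit was at +11 bp from the TSS. Zmynd10 (ENSMUSG00000010044.12) scored 54.1 in replicate 1 and 22.5 in replicate 2, at ranks 1635 and 1500. Its combined peak, chr9:107546947-107547760, had a −log10 p of 71.4 at rank 1603 and a fold enrichment of 9.47, the lowest of the 8 genes. The summit lay at +14 bp from the nearest of 5 annotated TSSs.

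Dnaaf1, Dnaaf3 and Dnaaf5 encode further cytoplasmic factors. Dnaaf3 (ENSMUSG00000055809.7), which is needed for assembly of outer and inner arms, had the highest score of the 8 genes in replicate 1, 195 at rank 141. In replicate 2 it had 59.9 at rank 385, the third highest of the 8. The combined peak, chr7:4532077-4533339, had a −log10 p of 208.9 at rank 220 and a fold enrichment of 25.0. Its summit lay at −166 bp, the farthest upstream of the 8, and its palindrome match lay at −168 bp from the TSS, in the same place.

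Dnaaf5 (ENSMUSG00000025857.10) encodes a HEAT repeat protein. It scored 142 in replicate 1 and 53.3 in replicate 2, at ranks 329 and 468. The combined peak, chr5:139149826-139150482, had a −log10 p of 171 at rank 370, whereas its fold enrichment of 13.9 was only at rank 2000 of the 2726 peaks. The summit was at −1 bp from the TSS of Dnaaf5-203 and at +5 bp from the first of 3 annotated TSSs.

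Dnaaf1 (ENSMUSG00000031831.6) encodes a leucine-rich repeat protein. It scored 95.5 in replicate 1 and 31.7 in replicate 2, at ranks 723 and 997. The combined peak, chr8:119575145-119575969, had a −log10 p of 100.6 at rank 1024 and a fold enrichment of 11.2 at rank 2379. Its summit was at +74 bp, in the 5′ UTR, and the peak extended farther into the gene than upstream of it.

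Ccdc103 (ENSMUSG00000020930.9) encodes a coiled-coil protein that is also known to bind axonemal microtubules and anchor the arms. It had the lowest score of the 8 in replicate 1, 38.9 at rank 2339, and scored 30.1 in replicate 2 at rank 1058. Replicate 2 had a second, narrow promoter peak there of score 7.09, the only case of more than 1 promoter peak per list among these genes. The combined peak, chr11:102881004-102881716, had the lowest −log10 p of the 8, 56.2 at rank 2086, and a fold enrichment of 9.60. Its summit was at −3 bp from the TSS of Ccdc103-202 and at +38 bp from the first TSS.

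**Figure D1:**
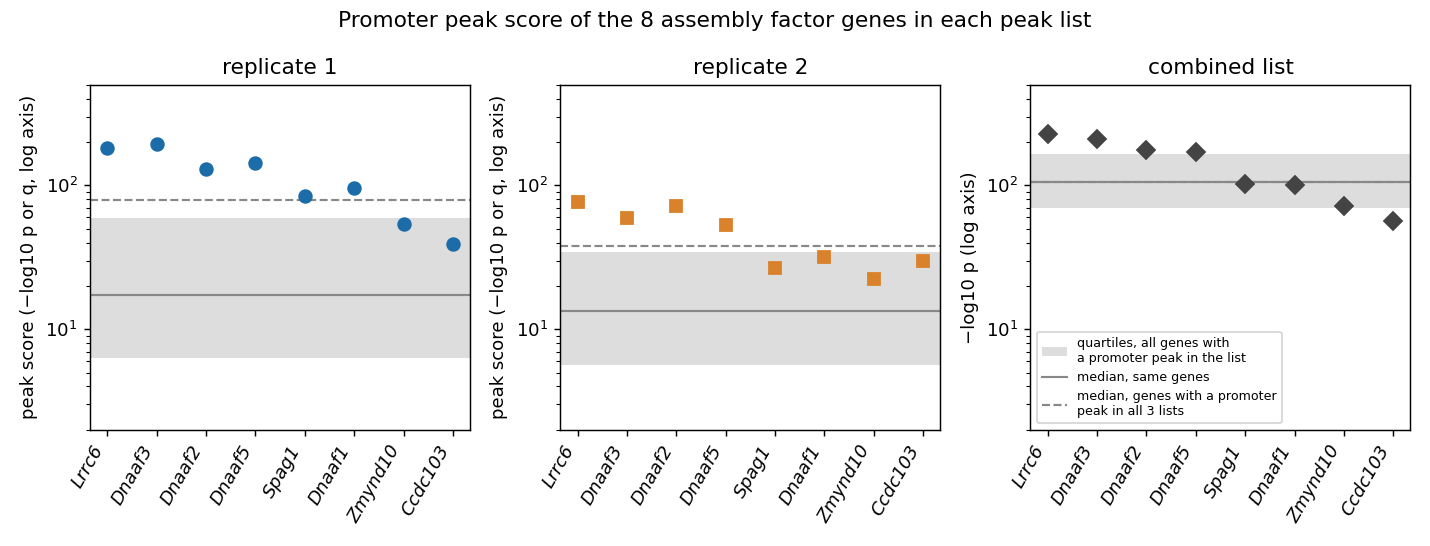
Highest promoter peak score of each assembly factor gene in replicate 1, replicate 2 and the combined list (y axis, −log10 scale on a log axis, unit as given on each panel). The band spans the quartiles of all genes with a promoter peak in the same list, the solid line is their median and the dashed line the median of the 1138 genes with a promoter peak in all 3 lists. All 8 genes lie above the solid line in both replicates, and 4 of 8 do so in the combined list.

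The strength of these peaks was set against that of other bound promoters. In replicate 1 the median score of the 8 genes was 113, against 17.4 over the 3066 genes with a promoter peak, and 8 of 8 lay above that median. In replicate 2 the medians were 42.5 and 13.4, the latter over 2474 genes, again with 8 of 8 above. These differences became smaller among genes bound in all 3 lists. For the 1138 such genes the median was 79.1 in replicate 1, with 6 of 8 assembly factor genes above it, and 38.0 in replicate 2, with 4 of 8 above it. In the combined list the median −log10 p was 136.7 for the 8 genes and 105.5 for the 1153 genes with a combined promoter peak, and 4 of 8 lay above the latter. The plot of scores by list shows 4 of the 8 genes above the upper quartile of the combined list and Ccdc103 below its lower quartile.

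The positions of single genes in this distribution covered a wide range. In the combined list, 10.8% of the genes with a promoter peak had a higher −log10 p than Lrrc6, 14.3% a higher one than Dnaaf3, 21.6% than Dnaaf2 and 22.9% than Dnaaf5. The figure was 52.0% for Spag1, 52.9% for Dnaaf1, 73.4% for Zmynd10 and 85.3% for Ccdc103. The same 4 genes, Lrrc6, Dnaaf3, Dnaaf2 and Dnaaf5, were thus the strongest in the combined list, and they were also the 4 strongest in replicate 1 and in replicate 2. If the combined list was restricted to its stronger 50%, Zmynd10 and Ccdc103 dropped out.

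**Figure D2:**
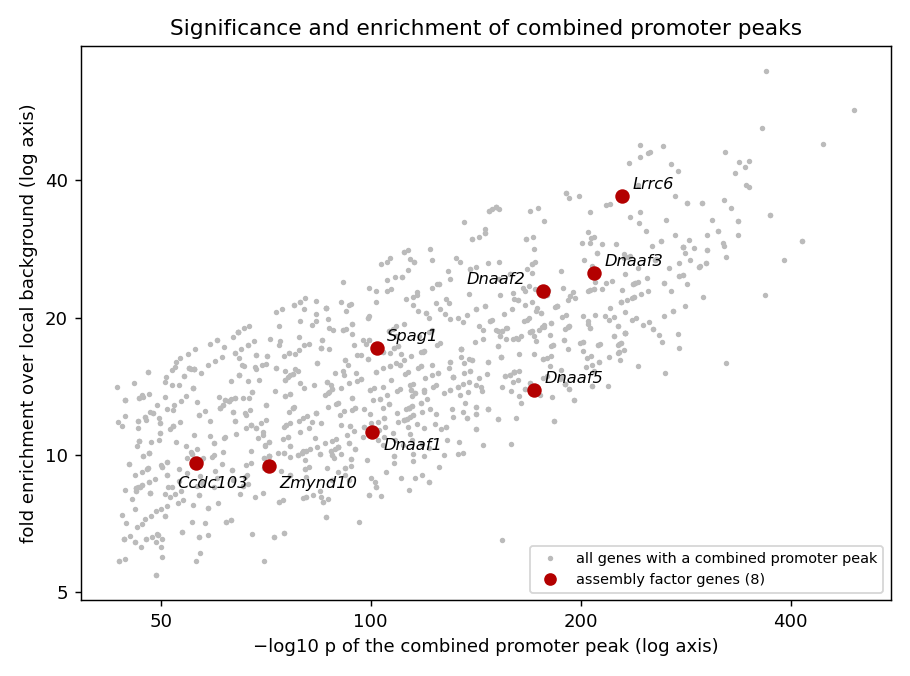
Fold enrichment over local background (y axis, log scale) against −log10 p (x axis, log scale) of the strongest combined promoter peak of each of 1153 genes (grey), with the 8 assembly factor genes in red. Lrrc6 stands at a high value on both axes, whereas Dnaaf5 and Dnaaf1 have a low fold enrichment for their −log10 p.

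Fold enrichment and significance did not order the genes in the same way. The median fold enrichment was 15.5 for the 8 genes, with a range of 9.47 to 37.0, and 15.0 for the 1153 genes, and 4 of 8 lay above the latter. Dnaaf5 and Dnaaf2 had −log10 p values of 171 and 176.5, but fold enrichments of 13.9 and 22.9. Spag1 and Dnaaf1 had −log10 p values of 102 and 100.6, but fold enrichments of 17.1 and 11.2. The lowest fold enrichments were those of Zmynd10, 9.47, and Ccdc103, 9.60, which also had the lowest −log10 p values.

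Replicates 1 and 2 placed these peaks at the same sites but differed in score and width. The score was higher in replicate 1 at 8 of 8 genes, by a ratio of 1.29 at Ccdc103 to 3.26 at Dnaaf3. Over the 1138 genes with a promoter peak in all 3 lists, the median score was also higher in replicate 1, 79.1 against 38.0. The peaks were also wider in replicate 1 at 8 of 8 genes, at 654 to 1252 bp against 346 to 1051 bp. Across all peaks of a list, most of them weaker, the medians were 199 bp in replicate 1 and 181 bp in replicate 2. Among combined peaks, whose median width was 886.5 bp, these genes lay on both sides of the median. Dnaaf1, Zmynd10, Ccdc103 and Dnaaf5 were below that median, at 825, 814, 713 and 657 bp. Spag1, Dnaaf2, Dnaaf3 and Lrrc6 were above it, at 904, 1025, 1263 and 1411 bp. By width, Lrrc6 was at rank 117 and Dnaaf3 at rank 286 of the 2726 combined peaks. Scores and widths depend on sequencing depth, which is unknown, so that the score ratios between replicates are given as a description, with the ranks beside them above.

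The distance between the centres of the replicates' peaks was 2 bp at Spag1 to 129 bp at Dnaaf1, with a median of 67 bp. The summit of the combined peak lay inside the peak of each replicate at 8 of 8 genes. The combined list was treated as a call on the pooled reads, so that this count adds no agreement between replicates. Of the 1153 genes with a combined promoter peak, 1138 also had a promoter peak in both replicates. A pooled call, or a set kept for reproducibility, would largely share its peaks with both replicates, so that this number is no check. The order of the 8 genes by score was similar in both replicates, with a Spearman's rho of 0.810 over 8 genes from the same libraries, given as a description. Dnaaf3 was first in replicate 1 and the third in replicate 2, and Ccdc103 was last in replicate 1 but stood above Spag1 and Zmynd10 in replicate 2. All 8 peaks were within the highest 5.87% of the list of replicate 1 and the highest 7.05% of that of replicate 2. Those lists hold many weak peaks, with median scores of 4.47 and 5.06. Among genes with a promoter peak, 32.5% scored above Ccdc103 in replicate 1 and 36.1% above Zmynd10 in replicate 2, the lowest of the 8 there.

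**Figure D3:**
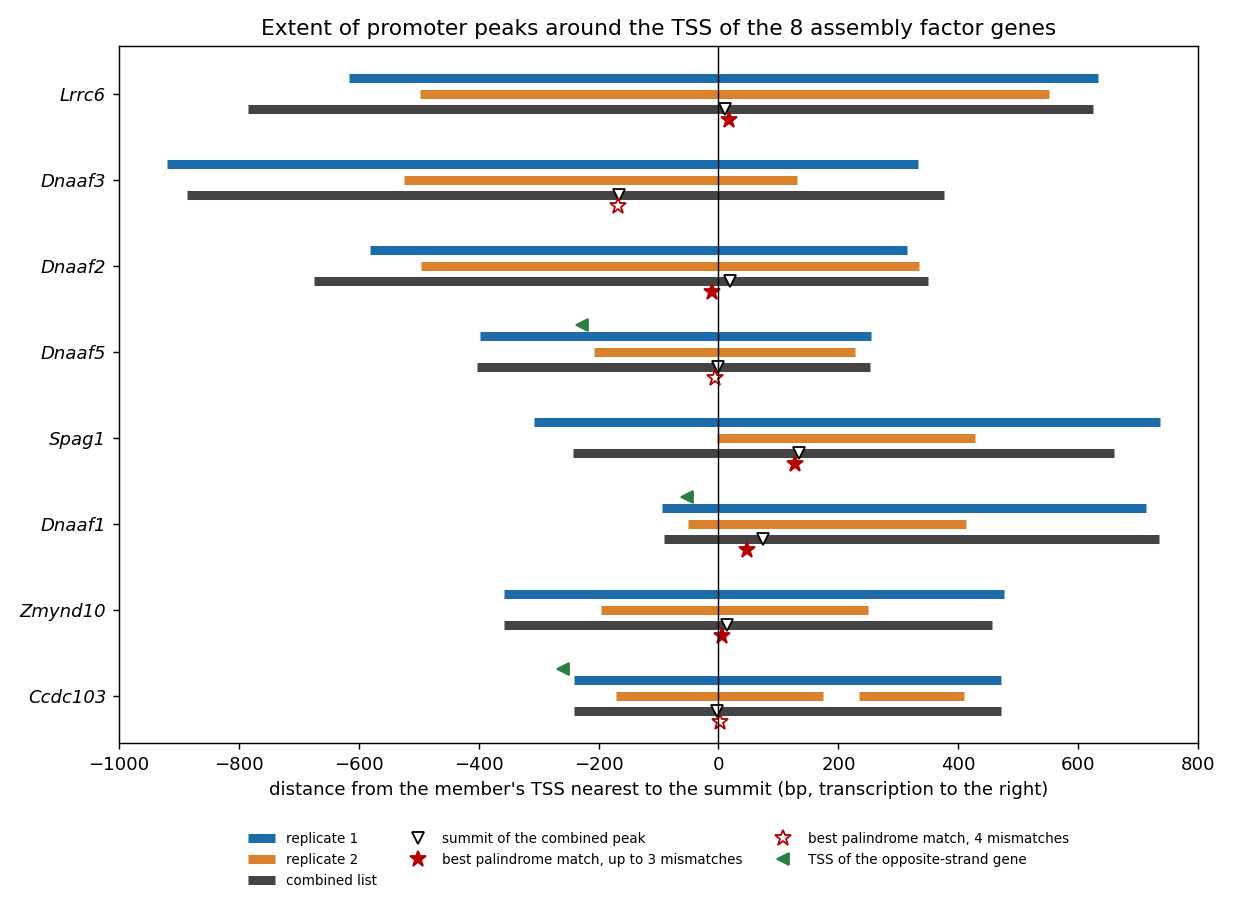
Extent of the promoter peaks in the 3 lists (bars), the summit of the combined peak (triangle), the best palindrome match (star) and the TSS of an opposite-strand gene (green) relative to the TSS nearest to the summit (x axis, bp), for the 8 genes ordered by −log10 p. Summits lie between −166 and +135 bp, and the match lies within 10 bp of the summit at 6 of 8 genes.

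The summits lay close to the TSS. Their distance from the nearest TSS of the gene was 1 to 166 bp with a median of 17 bp, where the median over the 1153 genes with a combined promoter peak was 70 bp. It was at most 50 bp, a limit chosen after the values were seen, at 5 of 8 genes, namely Dnaaf2, Dnaaf5, Zmynd10, Lrrc6 and Ccdc103, and at 40.3% of the 1153 genes. The summit was upstream of the TSS at 3 of 8 genes and downstream at 5 of 8, whereas it was upstream at 74.0% of the 1153 genes. This direction depended on the TSS used. From the first TSS of each gene, the summits of Dnaaf5 and Ccdc103 lay at +5 and +38 bp, so that 1 of 8 genes, Dnaaf3, kept an upstream summit, where 55.4% of the 1153 genes had one. The downstream summits of Dnaaf1, Dnaaf2, Zmynd10, Lrrc6 and Spag1 fell in the 5′ UTR. The plot of peak extents shows that the peaks themselves were not centred on their summits, with Dnaaf1 and Spag1 reaching farthest into the gene and Dnaaf3 and Lrrc6 farthest upstream. GC content in the 200 bp around the summit was 50.5 to 70% with a median of 58.5%, near the median of 59% for the 992 promoter peaks.

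At 3 of 8 genes the combined peak also met the promoter of a gene on the opposite strand, where this was so for 26.6% of the 1153 genes. In these cases the lists cannot assign the peak to one gene or the other. Dnaaf1 lies head to head with Hsdl1, with TSSs 52 bp apart, and the summit was 74 bp into Dnaaf1 and at −126 bp from the TSS of Hsdl1. Dnaaf5 and Prkar1b, which encodes a regulatory subunit of protein kinase A, have TSSs 228 bp apart, with the summit at −227 bp from the TSS of Prkar1b. Ccdc103 and Eftud2, which encodes a spliceosomal GTPase, have TSSs 260 bp apart, with the summit at −257 bp from the TSS of Eftud2, which lay outside the peak. In each pair the summit was nearer to the assembly factor gene than to its neighbour. The other 5 genes, Dnaaf2, Dnaaf3, Zmynd10, Lrrc6 and Spag1, had no such opposite-strand neighbour.

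Peaks outside the promoters were also counted. From 50000 bp before to 50000 bp after each gene there were 25 further peaks in replicate 1, of which 5 were met by a peak of replicate 2, and 2 in the combined list. Dnaaf3 had the strongest of these. The combined peak chr7:4546231-4547197, at −14.2 kb from the TSS of Dnaaf3, had a −log10 p of 214.9 at rank 200 and a fold enrichment of 29.0, close to the values of the Dnaaf3 promoter itself. Its scores were 159 in replicate 1 and 86.9 in replicate 2. In replicate 2 it thus outscored the Dnaaf3 promoter peak, and in replicate 1 it did not. Its summit fell inside Syt5, a synaptotagmin gene, at −110 bp from an internal TSS of that gene. It thus lay in another gene's promoter as defined here.

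The second such peak, chr12:69216143-69217004, lay at −18.1 kb from the TSS of Dnaaf2. Its summit fell inside Pole2, which encodes a DNA polymerase subunit, at −2578 bp from an internal TSS of that gene, the nearest TSS. It had a −log10 p of 48.2 at rank 2455, a fold enrichment of 13.9, and scores of 27.0 and 17.2 in replicates 1 and 2. Both peaks held a palindrome with a single mismatch, closer than any match in the 8 promoters. The sequences are printed for comparison with those of the promoters, from the plus strand of GRCm38.
Peak near Dnaaf3, chr7:4546703-4546732: acgagcctGTTGCCAAGGCAACgggaggga
Peak near Dnaaf2, chr12:69216459-69216488: ttctgactGTTGCCATGGCTACtagtggcc

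The mismatch was T8A in the former, 40 bp from the summit, and A12T in the latter, 6 bp from the summit. The peak near Dnaaf2 was weaker than the Dnaaf2 promoter peak, with its 2 mismatches, in all 3 lists. The remaining pairs of replicated peaks were weaker, with scores of 17.4 to 26.5 in replicate 1 and 6.03 to 11.3 in replicate 2, and they lay near Kcng4, Pole2 and Rgs22. Lrrc6 had 8 further peaks in replicate 1, with scores of 3.14 to 8.28, and none in replicate 2. Zmynd10 and Ccdc103 likewise had no further peak in replicate 2.

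The other genes of dynein arm preassembly were taken from a list of 16. Of these, 11 had a promoter peak in replicate 1, 10 in replicate 2 and in both replicates, and 8 in the combined list, shares that are all above the 14.0%, 11.3%, 9.05% and 5.26% of all protein-coding genes given above. The genes with a combined promoter peak were mainly dedicated ciliary factors. Lrrc56 had a −log10 p of 314 at rank 37 and Cfap298 had 264.6 at rank 87, both higher than any of the 8 assembly factor genes. Pih1d3, another PIH domain gene like Dnaaf2, had 151 with a fold enrichment of 35.1, and Daw1, an adaptor for transport of outer arms, had 125. Ttc12 had 75.5 and Pih1d2 73.1, slightly above Zmynd10, and Dyx1c1 had 60.8, between Zmynd10 and Ccdc103.

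Among general chaperones and their partners, 1 gene, Hsp90aa1, had a combined promoter peak. This HSP90 gene had a −log10 p of 57.3, with its summit at −346 bp from the TSS, farther than at any of the 8 assembly factor genes. Its paralog Hsp90ab1, the HSC70 gene Hspa8, and Pih1d1, Rpap3 and Ruvbl2, which encode parts of the R2TP co-chaperone complex, had no promoter peak in any list. Ruvbl1, the remaining R2TP gene, scored 25.7 and 8.45 in replicates 1 and 2, and Cfap300 scored 13.0 and 8.10, both without a combined peak. Wdr92 had a peak of score 9.46 in replicate 1 alone.

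**Figure D4:**
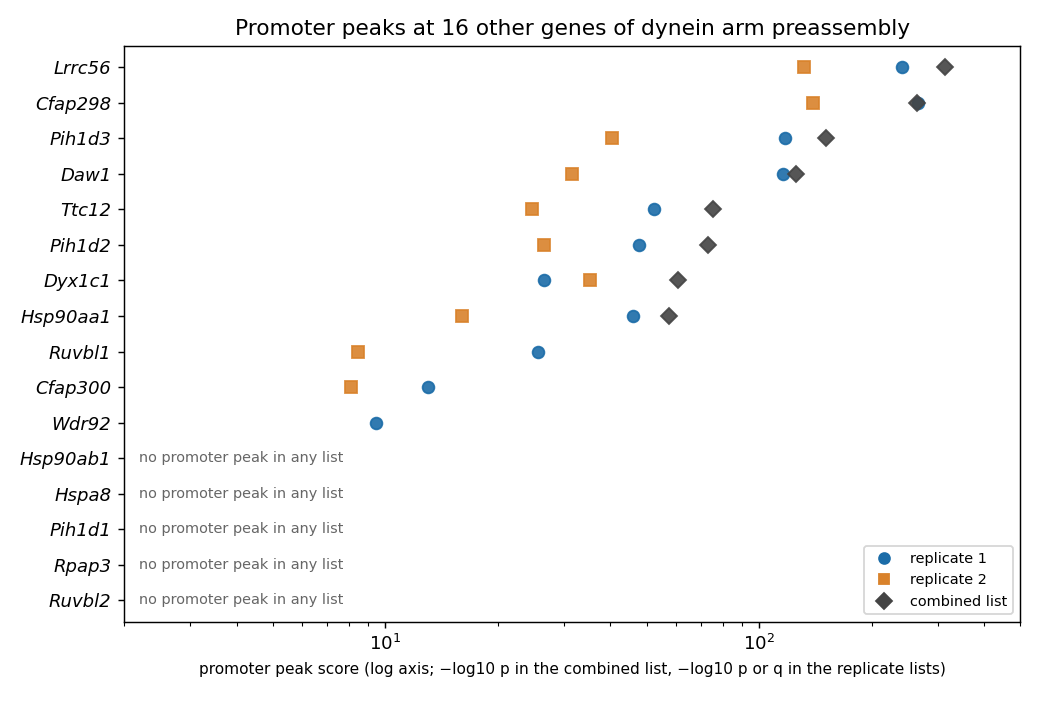
Promoter peak scores (x axis, −log10 scale on a log axis) of the 16 other preassembly genes in replicate 1 (circles), replicate 2 (squares) and the combined list (diamonds). Diamonds are present for 8 of 16 genes, and 5 genes have no promoter peak in any list.

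The dynein genes whose products are assembled were also examined, as heavy, intermediate and light chains. Of 21 such genes, 16 had a promoter peak in replicate 1, 14 in replicate 2, 13 in both and 5 in the combined list, beside the 14.0%, 11.3%, 9.05% and 5.26% of all protein-coding genes. Dnah10, a heavy chain of an inner arm, had a −log10 p of 171.2, and the light chain gene Dnal4 had 138, values within the range of the 8 assembly factor genes. Wdr63 had 79.2, Dnah11 45.9 and Wdr78 43.6, the last close to the lower limit of 43.2 of the combined list. Dnah1, the outer arm intermediate chains Dnai1 and Dnai2, and Dnali1 had scores of 14.1 to 29.1 in replicate 1 and 6.61 to 16.4 in replicate 2, below the lowest score of the 8 assembly factor genes in each replicate. Dnah6 scored 39.4 in replicate 1, slightly above Ccdc103, and had no promoter peak in replicate 2. The heavy chain genes Dnah2, Dnah3, Dnah5 and Dnah17 had no promoter peak in either replicate. Reads with several map positions had been discarded, and Dnah7a, Dnah7b and Dnah7c are closely related copies whose values are therefore uncertain.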

How the data were processed

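RFX2 ChIP-seq of 2 replicates with 2 inputs was analysed from the deposited peak lists. Groups and replicate numbers came from the sample titles. The submitters' processing notes name CASAVA 1.8.2, Bowtie 0.12.7, MACS2 2.0.10.20130520 and GRCm38. Per the study's methods, the authors discarded reads with several map positions, sequenced the library of replicate 2 in 2 runs, removed human-mapping reads from its second run, and called peaks against input. Human-read removal can also take conserved mouse sequence from replicate 2. They also describe a set of peaks kept because they were reproducible between the replicates, similar in number to the combined list. The sources do not say which call the lists come from. If the combined list is that set, its agreement with the replicate lists was built in. The authors' replicate lists hold 1 value per peak, a −log10 p-value or q-value. The deposited combined list holds a score, the fold enrichment as a ratio, −log10 p, −log10 q and the summit. The archive attaches it to replicate 2, and its treatment as a pooled call rests on its peak names.

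TSSs came from GENCODE mouse release 21, whereas the lists name Ensembl release 70, so that TSSs can differ from those of the authors. Peaks were ranked by score within a list, and replicate peaks, which have no summit, were placed by their centres. X-box matches were scored on the NCBI GRCm38.p6 sequence in 200 bp around the summit. Python 3.11.15, numpy 2.4.6, scipy 1.17.1, pysam 0.24.0 and matplotlib 3.10.9 were used. Promoter counts equalled those of bedtools 2.31.1 in 3 of 3 lists. The motif scan was tested on simulated windows with a planted site, for the number of mismatches but not for the position of the match.

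All 8 assembly factor genes were named, with any gene sharing their promoter peak and the genes nearest to their closest other peaks. The members, the lists of 16 preassembly genes and 21 dynein genes and the X-box window were chosen with earlier results of these data known. No test was applied, because 2 replicates of 1 condition give no comparison between groups. The alternatives varied the promoter, the overlap, the X-box limit and window, the position and the rank. No interval is given because read depth is unknown.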

Additional observations from a re-analysis of the deposited data

How the results depend on the processing

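Of 28 alternatives for the counts and medians over the 8 genes, 22 left the value near the reported one, 6 moved it and 0 reversed it. Counts, distances and ranks have no sign to reverse, so that the last number shows nothing. Values called near included 6 in place of 8 genes and a median summit distance of 29 in place of 17 bp. The number of genes with an X-box, 5 in the reported setting, was 2 with at most 2 mismatches, 8 with at most 4, and 2 when the search was centred on the middle of the peak. Of the 992 combined promoter peaks, 34.0%, 77.9% and 33.2% held a match under these settings, in the same order. The median distance from the TSS rose from 17 to 139 bp when the middle of the combined peak stood in for the summit. Ranking by peak width moved the median rank in replicate 1 from 561.5 to 1617, and that in replicate 2 from 732.5 to 2145.5. Promoters drawn around the first TSS only left 7 of 8 genes with a peak in each list, without Spag1. Requiring the replicates' peaks to overlap by 50% of each left 6 of 8, without Spag1 and Ccdc103, and requiring centres within 100 bp left 6 of 8, without Dnaaf1 and Ccdc103. No share over all genes stands beside these counts of 7 and 6. Without replicate 1, and without replicate 2, the count was 8 of 8. This was fixed by the 8 of 8 in each replicate and is no check, although both alternatives are among the 22. For single genes, 21 of 32 alternatives moved the position or rank. The cause was not tested. No paired analysis was possible because the result comes from no test. Unknown read depth limits comparison of scores between replicates.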
